A study of Homo sapiens with 8 samples.

Results

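Fascin and 9 other genes of filopodia, the thin actin protrusions at the front of migrating cells, were followed in PC3 cells with and without silencing of IER5L. The 10 genes were chosen by name from what their proteins do, with earlier results of these data known. They are the actin bundlers FSCN1 and FSCN2, the ENA/VASP proteins ENAH, VASP and EVL, the formins FMNL2 and FMNL3, the tip motor MYO10, and the actin binders EPS8 and LASP1. They are 10 of the 58051 genes in the count table, and 9 of them were among the 16959 genes with enough reads to test. FSCN2 was not tested, with 2 to 10 reads per sample.

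A filopodium is a bundle of parallel actin filaments that pushes the membrane outward. ENA/VASP proteins and formins add actin to the barbed ends at the tip, fascin holds the filaments together along the shaft, and MYO10 carries cargo toward the tip. EPS8 binds barbed ends and can bundle filaments, and LASP1 sits with actin at adhesions and the cell edge. Fascin is raised in many carcinomas and is studied for its part in migration and invasion.

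PC3 is an established human prostate cancer line, derived from a bone metastasis. The cells were transduced with lentivirus carrying a scrambled hairpin (shScramble) or a hairpin against IER5L (shIER5L, the construct named sh2), selected with puromycin, and sequenced as 4 biological replicates of each condition, 8 samples in all. IER5L, immediate early response 5 like, belongs to a family that regulates protein phosphatase 2A. With 1 hairpin per condition in these samples, loss of IER5L and any other effect of the hairpin's own sequence cannot be told apart. The study used another hairpin against IER5L in other experiments, and no sample here carries it.

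The reads counted on genes summed to between 21512128 and 24662190 per sample. Levels of a gene across samples are given in CPM, counts scaled to a common library size. IER5L itself stood at 3.91, 6.51, 5.62 and 3.23 CPM in the controls, replicates 1 to 4, and at 2.73, 3.02, 2.04 and 1.32 CPM in the silenced samples, in the same order, which all lists below keep. The IER5L conditions did not overlap, and the log2 fold change was -1.08 ± 0.248 (SE, n = 4 per condition). Its adjusted p was 0.0212, from the quasi-likelihood test of edgeR after Benjamini-Hochberg correction over all genes tested. It rose above 0.05 when shScramble replicate 2 (0.0937), shScramble replicate 3 (0.0780) or shIER5L replicate 3 (0.0891) was left out. Of the markers fixed for PC3, all 6 were tested, with KRT19, VIM and KRT18 the most abundant. The summed level of the 6 was between 1717 and 1939 TPM in every sample. TPM is the level per exon length, scaled to the same total in each sample. KLK3, KLK2 and CD3E were at 0 in every sample, and TMPRSS2, PTPRC, CDH5 and DCN reached at most 10 reads, while PECAM1 and COL3A1 were tested with means of at most 4.87 TPM. None of the tested markers named here had an adjusted p under 0.05 in the edgeR fit, and 1 of the markers had an unadjusted p under 0.05.

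FSCN1 was the only one of the 9 tested genes that was called, with an adjusted p under 0.05, and it was lower in the silenced cells. Fascin-1 is the main bundler of filopodial actin. FSCN1 stood at 53.2, 70.1, 74.0 and 51.1 CPM in shScramble and at 49.1, 46.0, 36.7 and 36.3 CPM in shIER5L. All 4 silenced samples lay below all 4 controls, although the lowest control, replicate 4, was close to the highest silenced sample, replicate 1. Among the controls, replicates 2 and 3 were well above replicates 1 and 4. In these bulk samples, fewer cells with the transcript and less of it per cell cannot be told apart.

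The FSCN1 mean was 62.1 ± 11.6 CPM in shScramble and 42.0 ± 6.51 CPM in shIER5L (SD, n = 4 each). The log2 fold change was -0.57 ± 0.120 (SE, 95% interval -0.82 to -0.31), or -32.4% (-43.4% to -19.3%), with an adjusted p of 0.0139 by edgeR's quasi-likelihood test. The exact two-sided permutation test over samples gave p = 0.0286, the smallest that 4 samples against 4 can give. The call depended on single libraries, since the adjusted p was 0.0615 without shScramble replicate 2, 0.0583 without shScramble replicate 3 and 0.0697 without shIER5L replicate 3. The FSCN1 estimate stayed between -0.65 and -0.47 over the 8 fits with 1 sample left out. The sample description of shScramble replicate 3 ends in another digit than those of the other controls, without a stated meaning.

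Of the 9 tested genes, 1 had an adjusted p under 0.05 and was lower, against a background of 1.46% of all genes tested. Since the genes were chosen with earlier results of these data known, the shares here are a description and no independent evidence. FSCN1 was the called gene and the 1 with a log2 fold change of -0.5 or less, which 0.366% of all genes reached with that p. None of the 9 was higher, against 2.46% of all genes, and none reached an unadjusted p under 0.05 in that direction with edgeR, DESeq2 or limma. FSCN1 was also the 1 gene whose conditions did not overlap, which 10.9% of all genes tested showed. Estimates of 6 genes lay below zero and of 3 above, with a median of -0.02. For all genes tested, 8375 lay below zero and 8584 above, with a median of 0.00.

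**Figure D1:**
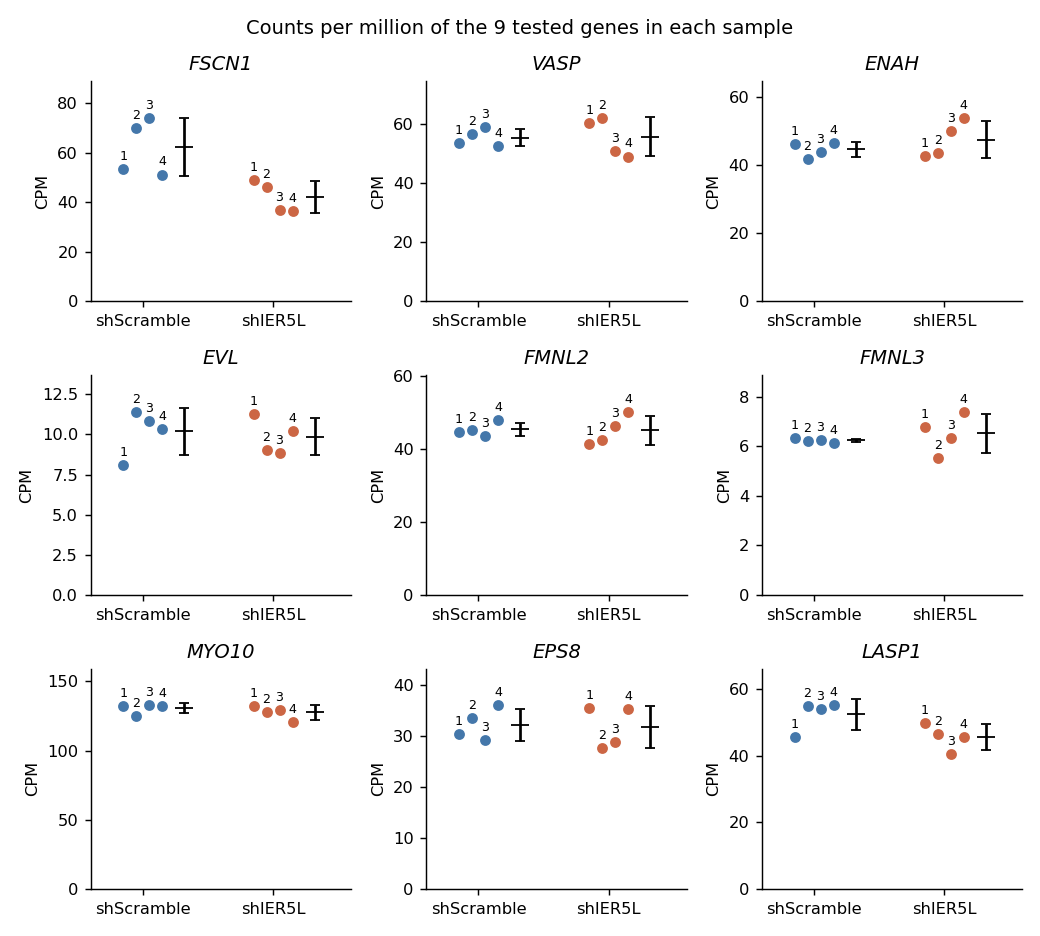
CPM (y axis, from 0) of the 9 tested genes in the 4 shScramble samples (blue) and the 4 shIER5L samples (orange), numbered by replicate, with the mean and SD as black bars. FSCN1 is the panel in which the conditions separate, from 51.1 to 74.0 CPM against 36.3 to 49.1, and in the other 8 panels they overlap.

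FSCN2, the fascin of photoreceptors and hair cells, was counted at 5, 5, 10 and 7 reads in shScramble and at 4, 10, 2 and 2 reads in shIER5L. These levels are too low to compare. Per exon length, FSCN1 made up 99.1% ± 0.243 of the summed level of FSCN1 and FSCN2 in shScramble and 99.2% ± 0.577 in shIER5L (SD, n = 4 each). FSCN1 lies on chr7:5592823-5606655 on the plus strand and FSCN2 on chr17:81528396-81537130 on the plus strand (hg38, as are all coordinates here). No exon of either gene overlapped an exon of another gene in the annotation.

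The hairpin target and its partial matches in the filopodia genes are shown because FSCN1 carries 2 copies of a heptamer of that target. The 21 bases of the sh2 target match the coding sequence of IER5L at chr9:129176988-129177008 on the minus strand, and the capitals below mark the 8 bases that 2 heptamers cover. These are CATCTCA (bases 12 to 18 of the target) and ACATCTC (bases 11 to 17), which share 6 letters and were picked from an earlier scan of these data.
sh2 target in IER5L: gacgcgtccaACATCTCAaac

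The longest annotated 3′ UTR of each gene was searched on the transcript strand. FSCN1 held CATCTCA at chr7:5606334-5606340 and at chr7:5606533-5606539, late in a 3′ UTR of 1181 bases. ENAH held 1 at chr1:225496027-225496033 (minus strand), which overlaps an ACATCTC, and a separate ACATCTC at chr1:225493557-225493563. FMNL2 held 1 at chr2:152648632-152648638 (plus strand), overlapping an ACATCTC, and FMNL3 held 1 at chr12:49638402-49638408 (minus strand). The 29 bases around each match follow, with the heptamer in capitals.
FSCN1, first match: cccagggggtgCATCTCAgccccctcttt
FSCN1, second match: tccccaacatgCATCTCActctgggtgtc
ENAH, first match: tagattttgtaCATCTCAgtccataaagc
ENAH, second match: ttcatatctgtACATCTCtccaaagctct
FMNL2: attaaaattaaCATCTCAgtaatcagcat
FMNL3: ttctaaagtggCATCTCAgcttgagtctg

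VASP, EVL, MYO10, EPS8 and LASP1 held neither heptamer in these UTRs. Thus 4 of the 9 tested genes held a match, beside 27.1% of 12733 tested genes with an annotated 3′ UTR, and at least 1 CATCTCA was in 20.9% and an ACATCTC in 13.3% of them. At least 2 copies of CATCTCA, as in FSCN1, were in 4.67%. UTR length bears on these shares: among genes with a 3′ UTR within 25% of the same length, CATCTCA was in 11.02% for FSCN1, 18.2% for FMNL2, 63.8% for FMNL3 and 70.8% for ENAH. The 3 genes with a match other than FSCN1 had log2 fold changes of 0.09 (ENAH), -0.01 (FMNL2) and 0.06 (FMNL3). Of 3450 tested genes with either heptamer, 140 (4.06%) were called lower, beside 85 of 9283 (0.916%) with neither. Since the heptamers were picked from a scan of the same fold changes, these shares are a description and no independent evidence. They were also not matched for UTR length. The heptamer TCTCAAA, at bases 14 to 20 of the target, was in 29.8% of the UTRs. LASP1 held 2 of it, MYO10, FMNL3 and EPS8 held 1 each, and FSCN1 held none. A match is a string of letters and not a measured binding site, and the part of the hairpin sequence in the FSCN1 values was not tested.

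The ENA/VASP family, whose proteins bind barbed ends and keep filaments growing, showed no called change. VASP stood at 53.4, 56.6, 58.8 and 52.3 CPM in shScramble and at 60.4, 62.0, 50.8 and 48.9 CPM in shIER5L. Silenced replicates 1 and 2 were the highest of the 8 VASP values and replicates 3 and 4 the lowest, so the conditions overlapped fully. The VASP log2 fold change was 0.01 ± 0.0768 (SE), with a 95% interval of -0.16 to 0.17, and its sign changed with the scaling.

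ENAH, the gene of Mena, stood at 46.4, 41.8, 43.8 and 46.6 CPM in shScramble and at 42.6, 43.7, 50.0 and 54.0 CPM in shIER5L. Silenced replicates 3 and 4 were above every control and replicates 1 and 2 were within the control range. Its log2 fold change was 0.09 ± 0.0765 (SE, interval -0.07 to 0.25, adjusted p = 0.621 by edgeR's quasi-likelihood test). EVL, the least abundant of the family, stood at 8.11, 11.4, 10.8 and 10.4 CPM in shScramble and at 11.3, 9.03, 8.86 and 10.2 CPM in shIER5L. The EVL conditions overlapped, with the lowest of the 8 values in a control, and the log2 fold change was -0.05 ± 0.122 (SE, interval -0.31 to 0.21).

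Shares within the ENA/VASP family differed between the conditions by less than their spread over samples. Per exon length, VASP made up 79.6% ± 1.12 of the family in shScramble and 78.8% ± 3.36 in shIER5L, ENAH 15.4% ± 1.33 and 16.4% ± 3.08, and EVL 4.96% ± 0.615 and 4.77% ± 0.574 (SD, n = 4 each). With the length of the longest coding transcript the EVL share was 8.90% and 8.60%. The VASP share ranged from 74.9% to 82.1% in the silenced samples, wider than the 78.1% to 80.6% of the controls. EVL exons overlapped antisense exons of DEGS2 and of a long noncoding RNA, which had means of 2.5 and 1.1 reads per sample. ENAH (chr1:225486835-225653142, minus strand) and VASP (chr19:45506579-45526983, plus strand) had no such overlap, and EVL lies on chr14:99971449-100144236 on the plus strand.

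The formin-like genes FMNL2 and FMNL3 encode proteins that elongate filaments at barbed ends at the leading edge. FMNL2 stood at 44.7, 45.3, 43.6 and 47.8 CPM in shScramble and at 41.4, 42.6, 46.3 and 50.2 CPM in shIER5L. The silenced samples lay on both sides of the controls, and the log2 fold change was -0.01 ± 0.0685 (SE, interval -0.15 to 0.14). FMNL3 stood at 6.32, 6.21, 6.26 and 6.14 CPM in shScramble and at 6.79, 5.55, 6.32 and 7.40 CPM in shIER5L.

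The FMNL3 controls lay close together, while the silenced samples spread on both sides of them, and the log2 fold change was 0.06 ± 0.118 (SE, interval -0.19 to 0.31). FMNL2 made up 93.7% ± 0.287 of the summed level of the pair in shScramble and 93.4% ± 0.624 in shIER5L. FMNL3 (chr12:49636499-49708165, minus strand) shares 2643 exonic bases with PRPF40B on the other strand. PRPF40B had a mean of 85.5 reads, and because reads were counted without strand, FMNL3 and PRPF40B reads in those bases could not be told apart. FMNL2 lies on chr2:152335237-152649834 on the plus strand, with no overlap.

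MYO10, an unconventional myosin that moves along filaments to filopodial tips, was the most heavily counted of the 10 genes. It stood at 132.1, 125.3, 132.7 and 132.6 CPM in shScramble and at 132.5, 127.9, 129.7 and 120.4 CPM in shIER5L. The conditions overlapped, and the lowest of the 8 MYO10 values was silenced replicate 4. The log2 fold change was -0.03 ± 0.0459 (SE, interval -0.13 to 0.06), the narrowest interval of the 9 genes. MYO10 lies on chr5:16661914-16936276 on the minus strand.

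EPS8, which binds barbed ends and bundles filaments together with the membrane-bending protein BAIAP2, stood at 30.4, 33.5, 29.2 and 36.1 CPM in shScramble and at 35.6, 27.7, 28.9 and 35.3 CPM in shIER5L. Each condition held both high and low EPS8 samples, and the log2 fold change was -0.02 ± 0.0940 (SE, interval -0.22 to 0.18). EPS8 lies on chr12:15620158-15882329 on the minus strand.

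LASP1, a LIM and SH3 domain protein that binds actin and zyxin, stood at 45.7, 55.1, 54.0 and 55.2 CPM in shScramble and at 49.9, 46.5, 40.7 and 45.7 CPM in shIER5L. Control replicate 1 lay within the silenced range and the other 3 controls lay above every silenced sample. The LASP1 log2 fold change was -0.20 ± 0.0755 (SE, interval -0.36 to -0.04, or -13.0%), with an unadjusted p of 0.0172 and an adjusted p of 0.176 by edgeR's quasi-likelihood test. The exact permutation test over samples gave p = 0.114. LASP1 (chr17:38869859-38921770, plus strand) overlaps 1 antisense gene that had no reads.

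**Figure D2:**
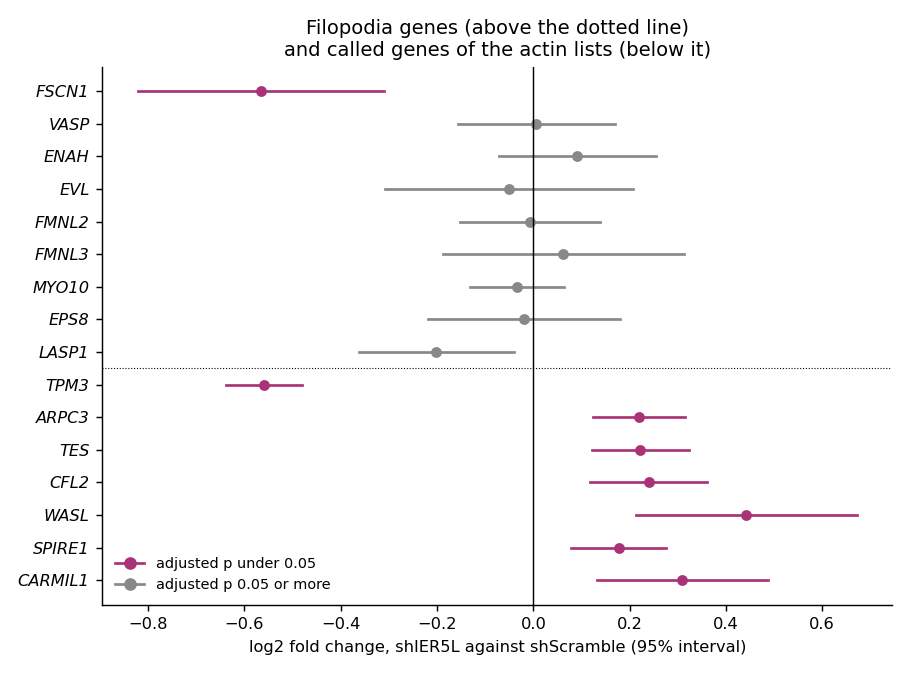
Log2 fold change of shIER5L against shScramble (x axis) with its 95% interval as a line, for the 9 tested filopodia genes above the dotted line and the 7 called genes of the actin lists below it, in purple where the adjusted p was under 0.05. FSCN1 at -0.57 is the only purple point above the line, and below it TPM3 at -0.56 lies to the left of zero and the other 6 lie to the right.

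The intervals limit how large a change these 8 samples could have missed. For MYO10, FMNL2, VASP and EPS8 the 95% interval of the log2 fold change reached no further than 0.22 from zero in either direction. For ENAH it reached 0.25. For EVL and FMNL3, the least abundant of the tested genes, it reached 0.31. Only FSCN1 and LASP1 had intervals that left out zero.

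Levels were compared between genes per exon length, as TPM. In shScramble the order of mean TPM was FSCN1 (66.5 ± 12.9), VASP (60.7 ± 3.58), MYO10 (37.0 ± 0.814), LASP1 (29.4 ± 2.87), FMNL2 (27.5 ± 1.21), EPS8 (20.6 ± 2.12), ENAH (11.7 ± 0.514), EVL (3.79 ± 0.579), FMNL3 (1.84 ± 0.0179) and FSCN2 (0.569 ± 0.168). FSCN1 and VASP overlapped across samples, as did LASP1 and FMNL2, while all other neighbours in this order did not overlap. By mean TPM in shScramble, FSCN1 exceeded 81.1% of the tested genes and FMNL3 exceeded 15.1%.

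In shIER5L VASP came first at 60.8 ± 6.74 TPM and FSCN1 second at 44.9 ± 6.51 TPM. Their ranges, 54.0 to 67.7 and 39.1 to 51.8, no longer overlapped. FMNL2 (27.3 ± 2.66) came before LASP1 (25.5 ± 1.91) with overlapping ranges, and the other 6 genes kept their ranks. The order depended on the length used. Divided by the longest coding transcript instead of all merged exons, VASP (65.6 TPM) was above FSCN1 (59.4 TPM) in shScramble as well, and LASP1 (34.7 TPM) was above MYO10 (30.3 TPM). EVL rose in that calculation from 3.79 to 7.31 TPM and kept its rank.

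**Figure D3:**
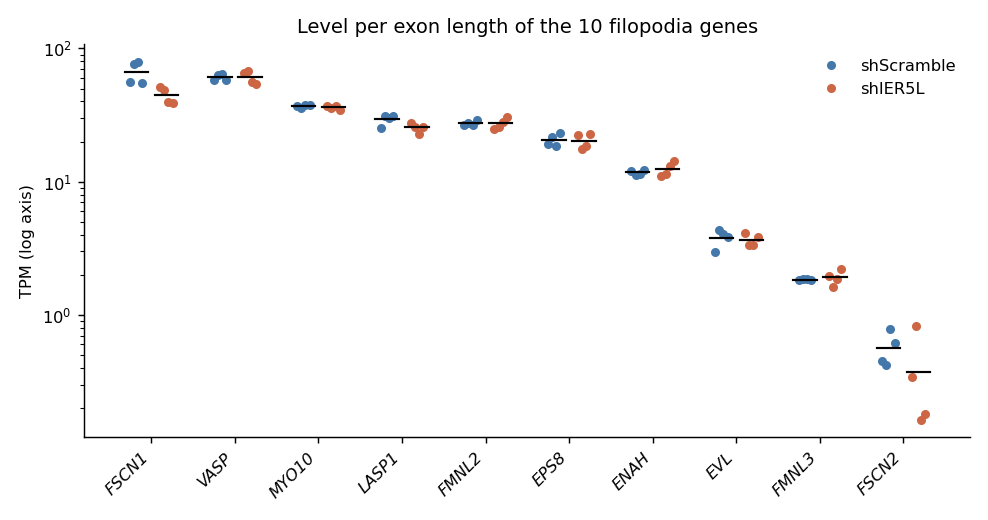
TPM (log axis) of the 10 filopodia genes in the 4 shScramble samples (blue) and the 4 shIER5L samples (orange), with a black line at each mean, ordered by the shScramble mean. FSCN1 moves from 66.5 to 44.9 TPM, below VASP, and the remaining genes hold their places apart from the overlapping pair of LASP1 and FMNL2.

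The spread of FSCN1 within a condition moved with a trend of the samples with GC content, whose source was not tested. In each sample, log2 CPM minus the gene's mean over all samples was smoothed against GC content over all tested genes, and the trend at 65% GC minus the trend at 40% GC was taken as the sample's GC tilt. The tilt was -0.11, 0.19, 0.26 and -0.16 in the controls and 0.18, 0.21, -0.20 and -0.38 in the silenced samples. The means of the tilt were 0.0471 ± 0.211 and -0.0471 ± 0.290 (SD, n = 4 each), a smaller gap than the spread within either condition.

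FSCN1, with 65.01% GC in its longest coding transcript, is richer in GC than 96.4% of the tested genes. Its deviation from the mean of its condition had the sign of the tilt in 8 of 8 samples, and so had that of VASP (59.6% GC). For ENAH (40.7% GC) the sign was the same in 0 of 8 samples, for FMNL2 (43.9% GC) in 1 of 8 and for LASP1 (57.3% GC) in 6 of 8. MYO10, FMNL3, EPS8 and EVL had the sign of the tilt in 4 or 5 of 8. The same 2 control samples that were high in FSCN1, replicates 2 and 3, thus had positive tilts, as did silenced replicates 1 and 2.

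With the GC trend of each sample removed, FSCN1 stood at 56.9, 62.9, 64.3 and 56.9 CPM in shScramble and at 44.8, 40.3, 40.5 and 44.9 CPM in shIER5L. The gap between the lowest control and the highest silenced sample was wider than in the uncorrected values. The coefficient of variation fell from 18.7% to 6.50% in shScramble and from 15.5% to 6.01% in shIER5L. The FSCN1 log2 fold change was then -0.50 ± 0.0577 (SE), with an adjusted p of 7.81e-07 by edgeR's quasi-likelihood test with the trend as an offset. The trend came from the same samples and was entered as known, so the SE and p of this fit leave out its uncertainty. The difference between conditions was thus present with the tilt removed, at a somewhat smaller size. VASP stood between 53.3 and 55.5 CPM in shScramble and between 54.4 and 57.9 CPM in shIER5L after the same step, and LASP1 had a log2 fold change of -0.15 ± 0.0578 with an adjusted p of 0.136.

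**Figure D4:**
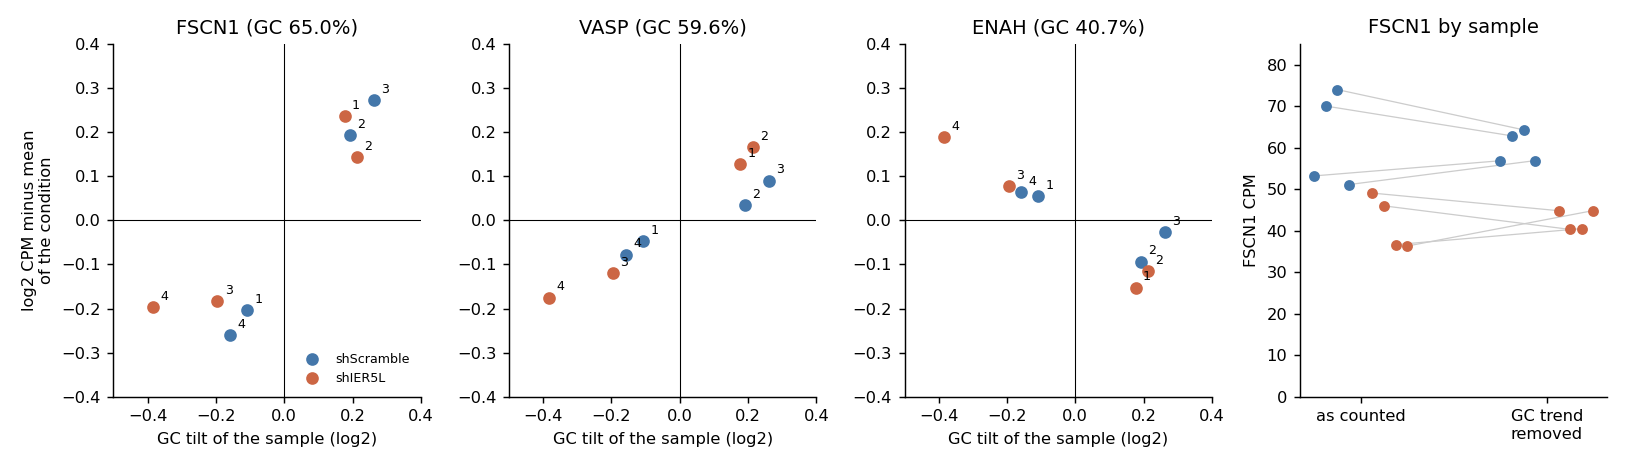
The left 3 panels plot log2 CPM of FSCN1, VASP and ENAH minus the mean of the condition (y axis) against the GC tilt of each sample (x axis), for shScramble (blue) and shIER5L (orange) samples numbered by replicate, and the right panel joins each sample's FSCN1 CPM as counted and with the GC trend removed. FSCN1 and VASP rise with the tilt and ENAH falls, and after removal the FSCN1 controls lie between 56.9 and 64.3 CPM and the silenced samples between 40.3 and 44.9.

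The genes whose spread within the conditions was most like that of FSCN1 did not share its difference between them. Over the 8 samples, after the mean of each condition was subtracted, Pearson's r of log2 CPM with FSCN1 was highest for HS3ST3A1 (0.989), MRPL4 (0.987) and ZNF71 (0.987) among 9090 genes with a mean of at least 10 CPM. The points share their libraries and the GC tilt, and the genes were picked for this r. HS3ST3A1, a heparan sulfate sulfotransferase, stood at 14.3, 21.5, 23.3 and 14.1 CPM in shScramble and at 22.8, 21.7, 16.1 and 14.3 CPM in shIER5L. Its log2 fold change was 0.03 ± 0.170 (SE), that of MRPL4 was -0.11 ± 0.0891 and that of ZNF71 was 0.06 ± 0.103, and none had an adjusted p under 0.05. The GC content was 50.5% for HS3ST3A1, 64.9% for MRPL4 and 54.0% for ZNF71.

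Other genes of actin protrusion were taken from 9 lists of 105 genes, of which 94 were tested. Of these, 1 fell and 6 rose, or 7.45% called in either direction beside 3.93% of all genes tested. The lists too were written with earlier results of these data known, so these shares are a description. Estimates lay above zero for 65 genes and below for 29, with a median log2 fold change of 0.05. Over all genes tested, 8584 estimates lay above zero and 8375 below, with a median of 0.00. TPM3, a tropomyosin that coats actin filaments, fell from 750.4 ± 11.1 to 509.5 ± 14.5 in CPM (mean ± SD of 4 samples each). The TPM3 log2 fold change was -0.56 ± 0.0371 (SE, adjusted p = 3.95e-07 by edgeR's quasi-likelihood test), close to the FSCN1 estimate with a smaller standard error, and it stayed called with any 1 sample left out. The longest TPM3 3′ UTR of 6124 bases held 1 CATCTCA. Near-identical processed copies of TPM3 could take some of its reads.

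The 6 that rose did so by less. Among the Arp2/3 and WAVE complex genes, which build branched networks, ARPC3, an Arp2/3 subunit, rose from 201.8 ± 8.67 to 234.9 ± 8.69 CPM, and WASL, which activates Arp2/3, rose from 9.09 ± 1.05 to 12.4 ± 1.04 CPM. The log2 fold changes were 0.22 (adjusted p = 0.0109) for ARPC3 and 0.44 (adjusted p = 0.0288) for WASL by edgeR's quasi-likelihood test. TES, an adhesion protein that binds Mena and zyxin, rose by 0.22 on the log2 scale (adjusted p = 0.0141 by edgeR), and CFL2, a cofilin that severs filaments, rose by 0.24 (adjusted p = 0.0255 by edgeR). SPIRE1, an actin nucleator, rose by 0.18 (adjusted p = 0.0428 by edgeR), and CARMIL1, which takes capping protein off barbed ends, rose by 0.31 (adjusted p = 0.0497 by edgeR). The adjusted p passed 0.05 for both SPIRE1 and CARMIL1 with RLE scaling or without a filter, and for CARMIL1 also with total count scaling or a minimum of 1 CPM, with values of at most 0.0918.

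These rises rested on single libraries. The count of 6 became 1 without shScramble replicate 2, 0 without shScramble replicate 3, 3 without shIER5L replicate 1, 2 without shIER5L replicate 3 and 2 without shIER5L replicate 4. In the edgeR fit with no rise called, 16 of the 94 genes were higher at an unadjusted p under 0.05, against 20 in the fit to all samples. SPIRE1 and CARMIL1 were above 0.05 in 7 of the 8 fits with 1 sample left out. The others were above it in 6 (WASL), 4 (CFL2), 2 (TES) and 1 (ARPC3). With the GC trend removed, the log2 fold changes were 0.17 for CFL2, 0.20 for ARPC3, 0.20 for TES and 0.40 for WASL. Those of SPIRE1 and CARMIL1 were 0.18 and 0.32. None of these genes but SPIRE1 held CATCTCA or ACATCTC in its longest 3′ UTR. SPIRE1 exons overlap antisense exons of another gene in 1694 bases (mean of 32.8 reads) and of PSMG2 in 92 bases. TES exons overlap an antisense gene in 242 bases (51.9 reads), and ARPC3 exons overlap another gene on the same strand in 97 bases (5.4 reads), so reads there could not be assigned to 1 gene.

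By list, 17 of 19 Arp2/3 and WAVE genes had estimates above zero, beside 8584 of all 16959 genes tested. The Arp2/3 and WAVE median was 0.09, and 2 were called higher, beside 2.46% of all genes tested. Of 8 bundlers and crosslinkers other than the fascins, none was called, and PLS3, the most abundant, had a log2 fold change of 0.02 ± 0.0445 (SE). Of 13 formins and other elongators 1 was higher, of 14 small GTPase and I-BAR genes none was called, and RAC1 had a log2 fold change of 0.02 ± 0.0380. Among the 8 tested ENA/VASP partners 1 was higher and VCL, vinculin, had a log2 fold change of 0.06 ± 0.0369. Of 21 capping and turnover genes 2 were higher, and TMSB10, which binds actin monomers, had a log2 fold change of -0.02 ± 0.0432.

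The 2 tested myosins of the filopodial and stereociliary list and the 3 tested relatives of EPS8 and LASP1 had no call. MYO7B was the more abundant of those myosins, with a mean of 2.24 CPM in shScramble and 1.85 CPM in shIER5L and a log2 fold change of -0.28 ± 0.188 (SE), and EPS8L2 among the relatives had 0.02 ± 0.126. Among the 6 actins and tropomyosins 4 estimates lay below zero. ACTG1, the gene of cytoplasmic gamma actin, had a log2 fold change of -0.13 ± 0.0474 (SE, unadjusted p = 0.0123, adjusted p = 0.149 by edgeR's quasi-likelihood test). ACTG1 was called lower without a filter (adjusted p = 0.0036 by edgeR) and with the first residual component as a covariate (0.00073). At an unadjusted p under 0.05, 20 of the 94 genes were higher and 8 lower, while 9.69% of all genes tested were higher and 6.78% lower at that p.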

How the data were processed

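RNA from 4 shScramble and 4 shIER5L PC3 samples was sequenced in pairs. The authors deposited raw read counts per gene, without normalization, from STAR 2.7.5c, SAMtools 1.15 and featureCounts 2.0.3 on hg38. By the study's methods, PCR duplicates were taken out of the alignments with SAMtools. The study's methods name a ribosomal RNA depletion kit and the sample records a poly(A) kit. Reads of a pair were counted one by one and without strand, and a median of 65.6% of low counts per sample were even, so counting noise is larger than the counts imply. Totals of 21512128 to 24662190 gave a median SE of 0.109 on the log2 scale over the genes tested.

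Genes were filtered with filterByExpr, scaled by TMM and tested with edgeR 4.0.16 (glmQLFit and glmQLFTest, condition as the only term, R 4.3.3) with Benjamini-Hochberg adjustment over 16959 genes. A gene was called at an adjusted p under 0.05. The sources call the samples biological replicates and describe 4 plates seeded per condition, without saying whether each plate was transduced separately. The p-values therefore measure only the spread between these samples, which may be that between plates of the same transduced cells. CPM use the TMM factors, and TPM the merged exon lengths of the table. Exact permutation tests used scipy 1.17.1. GC content came from the longest coding transcript of GENCODE 44, for 99.2% of the genes tested, with a loess span of 0.3, and 3′ UTRs from the same release.

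The named genes are the 10 genes, IER5L, list genes with an adjusted p under 0.05 (at most 12), the gene of highest TPM in each list, and the 3 genes most correlated with FSCN1. The 10 genes, lists and heptamers were chosen with earlier results of these data known. Alternatives were RLE and total count scaling, 2 other filters, DESeq2 1.42.0, limma 3.58.1 voom, the likelihood ratio test, a replicate block, counts halved, the GC trend removed and each sample left out. The first residual component as a covariate was added after seeing the data. The fit was tested on simulated counts. Some marker genes are not reported here.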

Additional observations from a re-analysis of the deposited data

Results flagged for a closer look

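Of 58 groups of 4 samples tested for 29 named genes, 3 held a sample far from the others by Dixon's criterion, and chance flags about 1 in 20 groups. MYO10 stood at 125.3 CPM in shScramble replicate 2 and between 132.1 and 132.7 CPM in the other 3 controls. LASP1 stood at 45.7 CPM in shScramble replicate 1 and between 54.0 and 55.2 CPM in the other 3 controls. MYO7B stood at 2.12 CPM in shIER5L replicate 3 and between 1.72 and 1.78 CPM in the other 3 silenced samples. Without shScramble replicate 1 the LASP1 log2 fold change was -0.26, with an adjusted p of 0.0560 by edgeR's quasi-likelihood test. MYO10 had -0.05 without shScramble replicate 2.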

How the results depend on the processing

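FSCN1 stayed lower and called under all 11 alternatives to the full fit, with log2 fold changes from -0.58 to -0.50 and adjusted p-values up to 0.0207. With 1 sample left out it ranged from -0.65 to -0.47, the genes called lower from 0 to 1 (likewise with -0.5 or less), the list genes lower from 1 to 2 and higher from 0 to 7. Near-zero estimates changed sign. VASP was -0.0021 with RLE, -0.0021 with DESeq2, -0.00076 with voom, -0.011 with total counts, -0.0093 with a minimum of 1 CPM and -0.0076 without a filter. BRK1 was -0.00035 with total counts. With the GC trend removed EVL was 0.0062, PLS3 -0.024 and TMSB10 0.025, and list genes were 3 lower and 14 higher. Without a filter 4 list genes were lower. The residual component gave 2 filopodia genes lower (LASP1, adjusted p = 0.0186 by edgeR) and 7 list genes lower and 19 higher. With 1 sample left out the ranges that crossed zero were -0.051 to 0.060 (VASP), -0.15 to 0.0090 (EVL), -0.062 to 0.032 (FMNL2), -0.0043 to 0.13 (FMNL3), -0.077 to 0.043 (EPS8), -0.0039 to 0.047 (PLS3), -0.038 to 0.013 (TMSB10), -0.062 to 0.15 (EPS8L2), -0.080 to 0.17 (HS3ST3A1) and -0.014 to 0.11 (ZNF71). By longest coding transcript, shScramble means were VASP 65.6, LASP1 34.7, MYO10 30.3, FMNL2 21.4, EPS8 17.1, ENAH 9.01, EVL 7.31 and FMNL3 1.31 TPM.

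Over all genes, 248 were lower and 418 higher, against 482 and 807 with the GC trend removed, 708 and 1185 with the residual component, 402 lower without a filter, 386 lower with DESeq2, and 138 to 248 lower and 167 to 508 higher with 1 sample left out. Genes lower with -0.5 or less were 96 by the likelihood ratio test, 104 with the residual component and 41 without shScramble replicate 3, against 62. The causes were not tested. With a replicate block FSCN1 was -0.56 (adjusted p = 0.0026 by edgeR) and 4 list genes rose instead of 6, without SPIRE1 (0.0635) and CARMIL1 (0.0603). With the mean of each condition subtracted, same-numbered samples correlated at -0.0478, 0.0977, -0.0415 and 0.144. The silenced sample most correlated with a control had its number for replicates 2 and 4 and another number for replicates 1 and 3. Whether the numbers pair the samples cannot be told from these values. Depth limits FSCN2, EVL and FMNL3 most.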
